A study of Mus musculus with 6 samples.

Results

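The crystallin genes Cryaa, Cryab, Cryba1, Cryba2, Cryba4, Crybb1, Crybb2, Crygs and Crym were followed by their symbols. The list was set by symbol, with earlier results of these data known. All 9 were among the 32285 genes counted in 6 single-nucleus RNA sequencing (snRNA-seq) libraries of whole mouse retina. The mice were rd10 animals, strain B6.CXB1-Pde6b-rd10/J, in which a mutation of Pde6b, the beta subunit of rod phosphodiesterase, leads to loss of rods and later of cones. One eye received a single intravitreal injection at postnatal day (P) 18, of saline in 3 libraries (saline control, replicates 1, 2 and 6) or of 20 ng recombinant IL-27, an immune-modulating cytokine, in 3 libraries (IL-27 treated, replicates 4, 5 and 10). Retinas were frozen 2 days later, at P20, and both groups carried the rd10 allele, so that every value below belongs to an injected, degenerating retina. Nothing in the labels ties a library to 1 animal or to a pool, so p-values measure the spread between these libraries.

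Crystallins are the main soluble proteins of the lens, where they keep the fiber cells transparent. The alpha crystallins Cryaa and Cryab are small heat shock proteins that hold unfolding proteins in solution, and Cryab is also made in many other tissues, glia among them. The beta and gamma crystallins, here Cryba1, Cryba2, Cryba4, Crybb1, Crybb2 and Crygs, share a fold of Greek key motifs and are known as structural lens proteins, while several are reported in neural retina after injury. Crym, mu-crystallin, is unrelated in sequence and is an NADPH-dependent protein that binds thyroid hormone. In single-nucleus data a lens protein mRNA can come from the nuclei or from free RNA in the suspension.

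Nuclei were placed in 11 cell types by marker genes: the photoreceptors (rods and cones), the neurons of the inner retina (bipolar cells, BC, amacrine cells, AC, horizontal cells, HC, and retinal ganglion cells, RGC), the glia (Muller glia, astrocytes and microglia) and the vessel cells (pericytes and endothelial cells). The crystallin, small heat shock and lens lists were left out of the genes used for clustering. Of 52265 retained nuclei, 62 stayed unnamed, 39 of them in a cluster led by Rpe65 that carried markers of pigment epithelium and of vessels. No cluster was named from lens cell markers. Of those markers Foxe3 was listed at 0 UMIs (unique molecular identifiers), Dnase2b at 2 and Lim2 at 17 over all 6 libraries. The other lens cell markers were Lctl at 27, Grifin at 42, Mip at 197, Bfsp1 at 197, Hsf4 at 331 and Bfsp2 at 589. Libraries held 36678332 to 48260748 UMIs on 8968 to 9965 barcodes, and 371 barcode sequences occurred in 2 libraries and 1 in 3. In the named nuclei IL-27 replicate 4 stood apart in haemoglobin genes, at 333 CPM (UMIs of a gene or gene set scaled to the total of the same sum) against 12.7 to 47.1 in the other 5 libraries. Over every deposited barcode these genes ran from 62.2 CPM in IL-27 10 to 326 CPM in IL-27 4, with 245 CPM in saline 2.

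At 2 days after injection, 0 of the 9 crystallins passed the test between IL-27 treated and saline control retinas in the sum over all cell types, and the groups overlapped for every one of them. The best counted members were Crym and Cryab, with 18820 and 6364 UMIs, followed by Cryba1 with 1977, and the other 6 had 124 to 487 UMIs each. Crym stood at 95.5, 84.0 and 81.4 CPM in saline replicates 1, 2 and 6 and at 73.4, 97.4 and 138 CPM in IL-27 replicates 4, 5 and 10. The IL-27 libraries thus held both the lowest and the highest Crym value, and the means of 87.0 ± 7.49 and 103 ± 32.6 CPM (SD, n = 3 each) had an exact two-sided permutation p of 0.6. Cryab was the steadiest member, at 31.6, 31.3 and 35.4 CPM after saline and 29.4, 27.5 and 36.1 CPM after IL-27, a highest over lowest library of 1.31. Its means of 32.8 ± 2.28 and 31.0 ± 4.54 CPM (SD, n = 3 each) overlapped, with an exact permutation p of 0.6. With 3 libraries against 3 the smallest p this permutation test can give is 0.1.

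Cryba1 stood at 11.4, 11.6 and 7.66 CPM after saline and at 7.63, 8.10 and 13.2 CPM after IL-27. Saline 1, saline 2 and IL-27 10 were the high libraries, so that both groups held high libraries. The same 3 libraries were the high ones for Cryaa, at 3.02, 4.79 and 0.442 CPM after saline and 1.38, 0.763 and 4.51 CPM after IL-27. Crygs shared these high libraries, with 1.94, 2.27 and 0.177 CPM after saline and 0.919, 0.352 and 2.41 CPM after IL-27. Crybb2 was at 1.30, 2.12 and 0.206 CPM after saline and at 0.858, 0.469 and 1.34 CPM after IL-27. Cryaa, Crygs and Crybb2 were each lowest in saline 6. Cryba2 ranged from 0.147 CPM in saline 6 to 1.197 CPM in saline 2. Cryba4 ranged from 0.442 CPM in saline 6 to 1.58 CPM in IL-27 10, and Crybb1 from 0.560 CPM in saline 6 to 1.47 CPM in saline 2. For all 9 genes the range within the IL-27 group was wider than the distance between the group means.

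**Figure D1:**
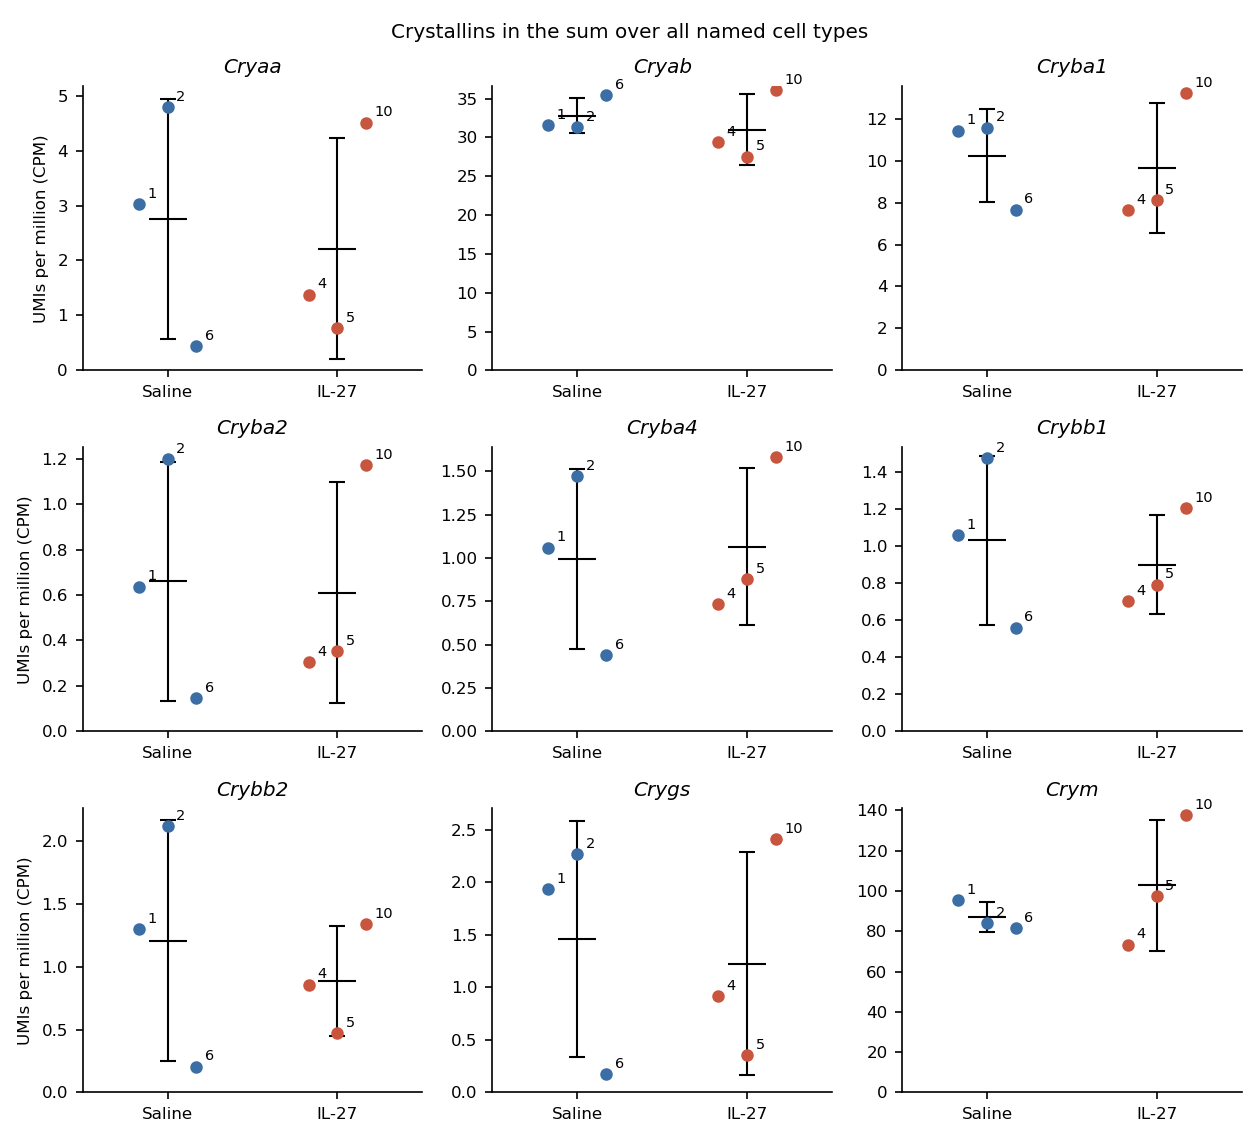
Each panel shows 1 crystallin in the sum over all named cell types, in CPM, with a point per library numbered by its replicate and the mean with SD (n = 3) per group. The groups overlap in every panel, and saline 6 is the lowest library for Cryaa, Cryba2, Cryba4, Crybb1, Crybb2 and Crygs.

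The test across all genes gave the same picture. With edgeR's quasi-likelihood test and Benjamini-Hochberg adjustment, 0 of 20107 genes passed an adjusted p of 0.05 (0.0%), and 606 (3.01%) had an unadjusted p under 0.05. DESeq2 called 17 of the 22589 genes it tested. All 9 crystallins entered the edgeR test, and 0 passed at either level. Their log2 fold changes (IL-27 over saline) ran from -0.46 (SE 0.65) for Crybb2 to 0.23 (SE 0.18) for Crym, with a median of -0.15 against 0.000892 over all genes tested. The standard errors were 0.10 for Cryab and 0.22 for Cryba1, but 0.77 for Cryaa and 0.78 for Crygs, so the last pair had errors too wide to show a 2-fold change.

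Within single cell types, 28 tests of a crystallin were possible, and 0 passed the adjusted threshold, against 10 of 105369 tests of all genes in those types (0.00949%). At an unadjusted p under 0.05 there were 2 crystallin tests, against 4424 of all tests (4.2%). The first was Crym in Muller glia, with a log2 fold change of 0.44 (SE 0.16, adjusted p = 0.42). The second was Cryab in microglia, with a log2 fold change of -0.81 (SE 0.31, adjusted p = 1.0). Among all genes tested, 1307 of 13979 in Muller glia and 241 of 8159 in microglia had an unadjusted p under 0.05. Both crystallin tests are followed below with their library values.

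Between cell types the differences were larger. UMIs were expressed per 100 nuclei, since free RNA would add about the same number of UMIs to every barcode of a library whatever the size of the nucleus, whereas a nucleus' own transcripts follow its cell type. Over the 4 inner retinal neuron types (BC, AC, HC and RGC), Cryab stood at 9.99 UMIs per 100 nuclei, with a lowest type of 8.996 (HC) and a highest of 11.2 (RGC), a ratio of 1.24. Crym stood at 17.3, from 17.1 (AC) to 19.9 (HC), a ratio of 1.16. These nuclei differed in depth, from a mean of 4537 UMIs in BC to 10683 in RGC, and the same 2 genes differed 2.65-fold and 2.22-fold between these types in CPM. Haemoglobin genes, whose mRNA belongs to blood cells, behaved likewise at 5.09 UMIs per 100 nuclei (ratio 1.10), as did 13 rod genes at 384 (ratio 1.16). The mitochondrial genes did not, at 1443 per 100 nuclei in BC and 2734 in RGC (ratio 1.89, against 1.97 in CPM). The part of free RNA in the Cryab and Crym UMIs of these neurons was not tested. Rods held 1.08 times the neurons' Cryab and 1.15 times their Crym per nucleus, and cones 1.08 and 1.10 times. Haemoglobin genes were not level there, at 16.7 times the neurons in rods and 4.78 times in cones.

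The test between types works in CPM and subtracts no free RNA. Each type was compared with the mean of the others within libraries by edgeR's quasi-likelihood test, in which 6 of the 9 crystallins could be tested, and Cryba2, Crybb2 and Crygs were too sparse. In rods, a shallow type with a median of 1252 UMIs, all 6 were higher (37.0% of all genes were), and in cones Cryab was higher (34.3%). Cryab and Crym were lower in AC (18.6% of all genes), HC (19.8%) and RGC (20.4%), and Crym was lower in BC (17.9%). Muller glia were higher in Cryab and Crym (39.8%), microglia in Cryaa, Cryab, Cryba1, Cryba4 and Crybb1 (33.9%), and no crystallin passed in astrocytes, endothelial cells or pericytes.

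**Figure D2:**
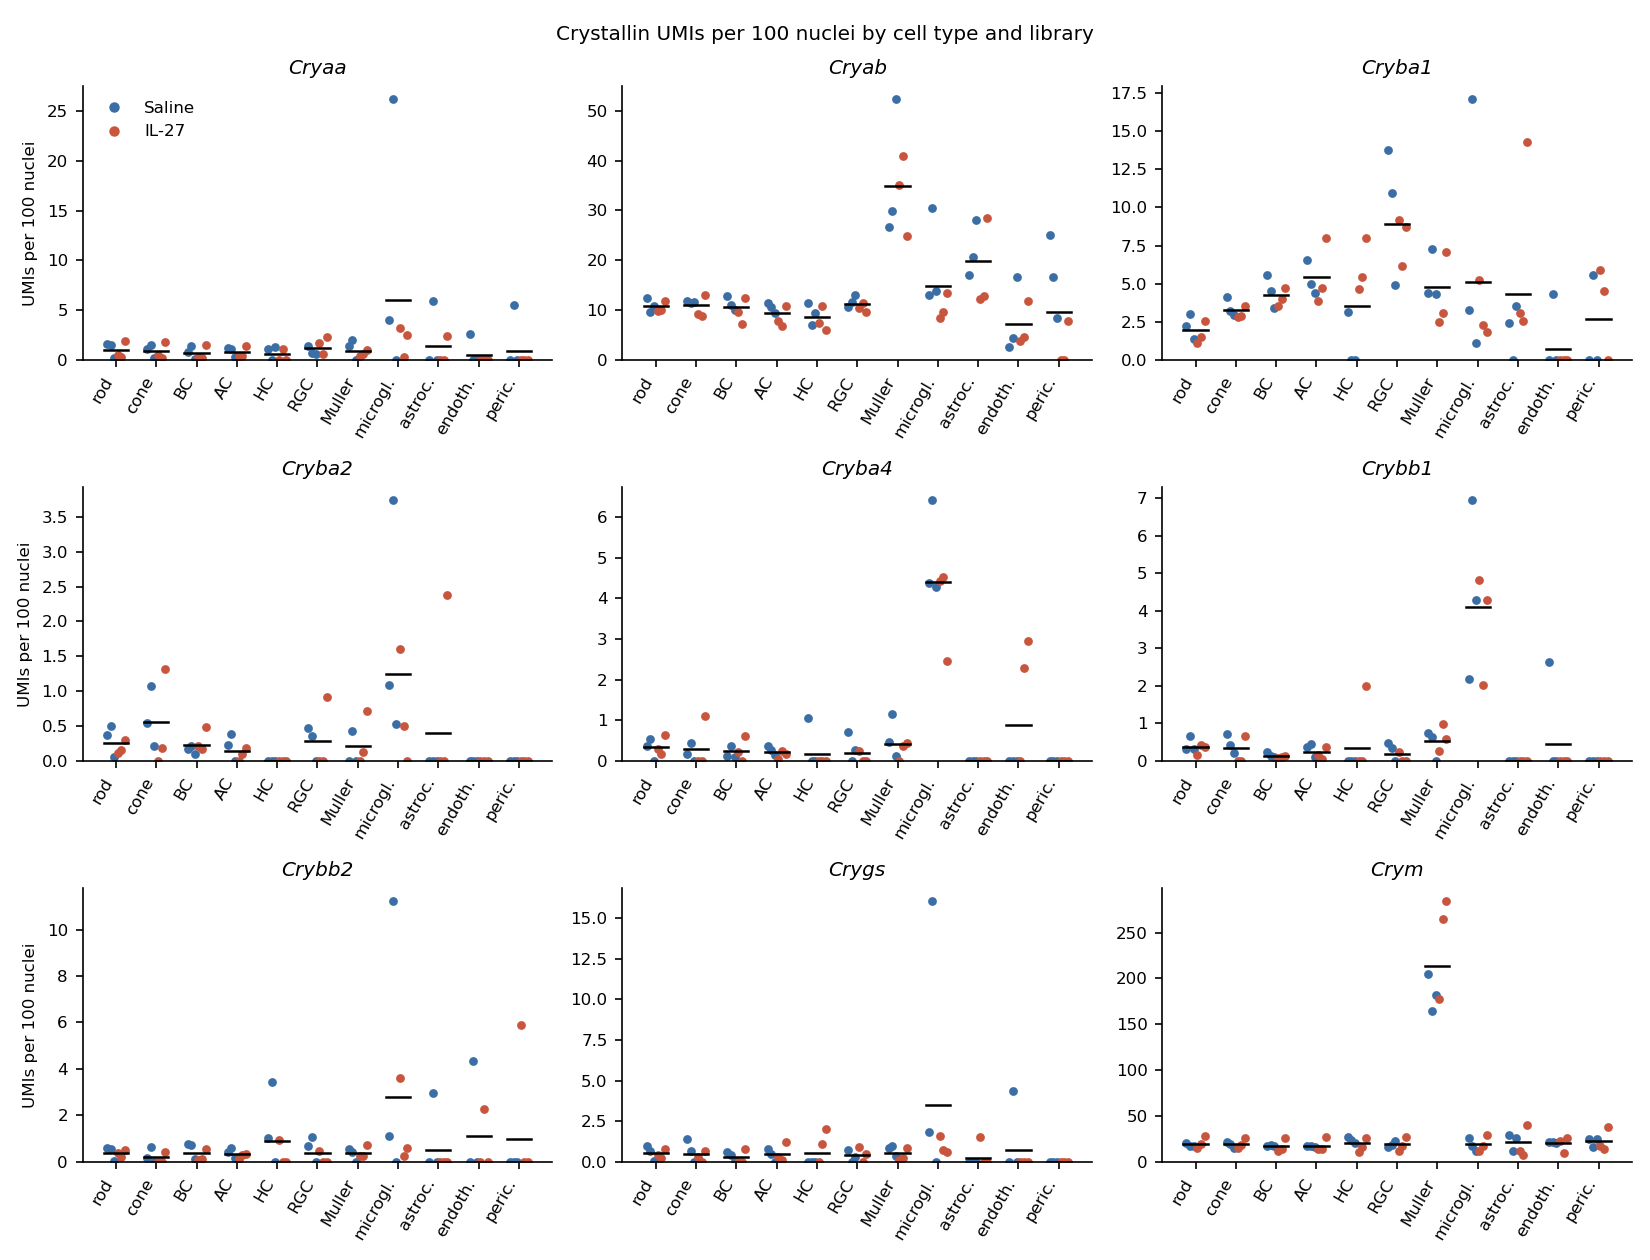
Each panel shows 1 crystallin in UMIs per 100 nuclei for 11 cell types, with a point per library (saline control and IL-27 treated) and a line at the mean of 6 libraries. Crym and Cryab stand highest in Muller glia, Cryba4 and Crybb1 in microglia, and the single high microglia point of Cryaa, Crybb2 and Crygs is saline 2.

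Crym was by far highest in Muller glia. Crym (chromosome 7, 120186380 to 120202111, minus strand, GRCm38) had 213 ± 50.03 UMIs per 100 Muller nuclei (SD, n = 6 libraries). Every one of the other 10 types had a mean between 17.3 and 22.7, the neighbours in that order overlapping each other. Against the 4 neuron types, Muller glia held 12.2 times the UMIs per nucleus, from 9.32 to 18.9 in single libraries and higher in 6 of 6. Rod, haemoglobin and mitochondrial genes were at 0.879, 1.02 and 1.11 times the neurons in the same nuclei. The log2 difference from the other types in CPM was 3.43 (SE 0.06, adjusted p = 1.41e-61). A Crym UMI was seen in 67.0% of Muller nuclei and in 15.2% of AC nuclei at median depths of 4376 and 5543 UMIs. After thinning every nucleus to 1000 UMIs the shares were 31.2% (exact Clopper-Pearson 95% interval 29.9 to 32.5) and 3.203% (2.89 to 3.53). These intervals, like the others below, cover counting error only.

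In Muller glia Crym stood at 425, 343 and 418 CPM in saline replicates 1, 2 and 6 and at 402, 569 and 614 CPM in IL-27 replicates 4, 5 and 10. IL-27 5 and 10 were above all saline libraries and IL-27 4 lay between the saline values, so the groups overlapped. The means were 396 ± 45.4 and 528 ± 112 CPM (SD, n = 3 each), with an exact permutation p of 0.3. A cluster of 655 nuclei counted with Muller glia also varied in share between the libraries. It carried 5 of the 9 Muller markers, was led by Fbln1, Slc6a13 and Optc, and made up 19.9%, 21.6% and 11.5% of Muller nuclei after saline and 1.49%, 0.717% and 12.0% after IL-27.

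Nuclei of the Fbln1 sub-cluster held little Crym. Crym lay between 22.6 and 102 CPM there and between 405 and 671 CPM in the other Muller nuclei, lower in 6 of 6 libraries with no overlap. Per nucleus, the Fbln1 sub-cluster had 0.994 times the Crym of the inner retinal neurons. Cryab did not share this pattern, being 3.39 times the neurons' level in the sub-cluster and 3.49 times in the other Muller nuclei, and its CPM was higher in the sub-cluster in 5 of 6 libraries. Mitochondrial genes were at 2.39 times the neurons in the sub-cluster and at 0.948 times in the other Muller nuclei, and their part in these values was not tested. IL-27 replicates 4 and 5 had only 12 and 6 nuclei in the sub-cluster, so their values there rest on few UMIs. Without the sub-cluster, Crym in Muller glia was at 493, 415 and 461 CPM after saline and 405, 573 and 671 CPM after IL-27. The IL-27 group then held the lowest and the highest library, the log2 fold change was 0.27 (adjusted p = 0.96) and the exact permutation p was 0.4.

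**Figure D3:**
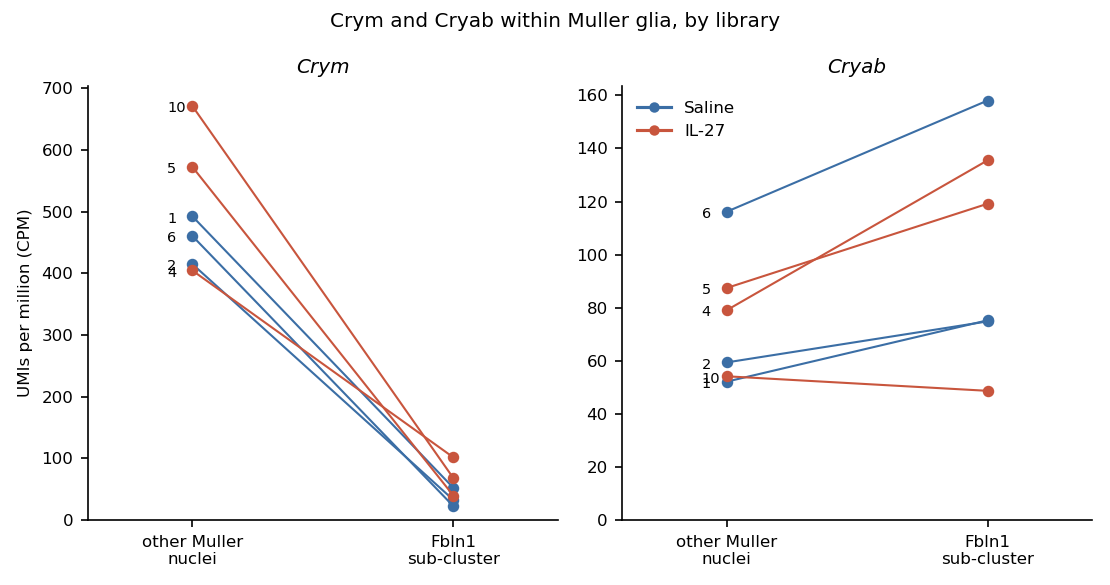
Crym and Cryab in CPM in the Fbln1 sub-cluster and in the other Muller nuclei, with a line per library numbered by its replicate. Crym falls from 405 to 671 CPM to 22.6 to 102 CPM in every library, while Cryab is higher in the sub-cluster in 5 of 6.

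Among the 12 genes of thyroid hormone transport, conversion and reception, which act on the ligand that Crym binds, 9 of the 11 tested were higher in Muller glia than in the other types and 1 was lower. The median log2 difference of the list was 1.25 against 0.16 over all genes (39.8% of genes were higher and 15.7% lower). Dio2, the deiodinase that makes active thyroid hormone, was higher by a log2 of 4.09 (SE 0.16), and the receptor Thrb by 1.81 (SE 0.07). With respect to IL-27, 0 of the 12 passed in the sum of all types. In Muller glia 0 of the 11 tested passed, and 2 had an unadjusted p under 0.05 (1307 of 13979 genes did). With no filter on low counts Slc16a10 passed there, lower after IL-27, among 332 of 23986 genes called. Over the 66 sums of a type in a library, the genes most like Crym by Pearson's r of log2(CPM + 1) were Rlbp1, the retinaldehyde-binding protein of Muller glia (r = 0.88), and the glycolytic enzyme Eno1 (r = 0.84). The points share libraries, depth and free RNA.

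Cryab was also highest in Muller glia, by a smaller factor than Crym. Cryab (chromosome 9, 50751325 to 50756636, plus strand, GRCm38) had 26.8, 29.9 and 52.4 UMIs per 100 Muller nuclei after saline and 35.1, 40.9 and 24.9 after IL-27, a mean of 35.0 ± 10.3 (SD, n = 6). Saline 6 was the highest library and the groups overlapped. Astrocytes followed with 19.9 ± 7.19, below Muller glia in 5 of 6 libraries, and microglia with 14.8 ± 7.99, below astrocytes in 5 of 6. The ranges of these neighbours overlapped. Relative to the inner retinal neurons, Muller glia held 3.48 times the Cryab UMIs per nucleus (2.19 to 5.48 in single libraries) and astrocytes 1.98 times (1.401 to 2.81), both higher in 6 of 6 libraries. In CPM the Muller difference was a log2 of 1.67 (SE 0.11, adjusted p = 7.44e-23).

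Cryab starts inside Hspb2, another small heat shock gene on the opposite strand, and the sources used here do not say whether counting used strand. Hspb2 had 56 UMIs in all named types, against 6364 of Cryab. Of the 8 other small heat shock genes 4 could be tested between types. Hspb11 was higher in Muller glia by a log2 of 1.49 (SE 0.09) and Hspb8 was lower (log2 -1.97, SE 0.49). The list's median in Muller glia was -0.56 against 0.16 over all genes. Genes most like Cryab over the 66 sums were the calcium-binding protein gene S100a1 (r = 0.81) and Tmbim1 (r = 0.79).

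In microglia Cryab stood at 58.4, 123 and 61.5 CPM after saline and at 37.4, 43.9 and 60.7 CPM after IL-27. IL-27 4 and 5 were below all saline libraries, but IL-27 10 lay above saline 1, so the groups overlapped. Saline 2, the highest, is the library in which 1 barcode named microglia carried 45 Cryab UMIs together with 101 UMIs of Cryaa, Cryba2, Crybb2 and Crygs. Clustered at a finer resolution (0.5 in place of 0.25), 52 barcodes left the microglia, with 135 Cryab UMIs per 100, and the remaining 1545 held 10.9. The difference of microglia from other types was then a log2 of 0.33 (adjusted p = 0.18), against 0.89 (SE 0.20, adjusted p = 0.000106) before.

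Cryba4 and Crybb1, acidic and basic beta crystallins, were the pair that stood out in microglia. They are neighbours on chromosome 5 (Cryba4 at 112246493 to 112252518 on the minus strand, Crybb1 at 112255815 to 112269585 on the plus strand, GRCm38), read away from each other across a gap of 3297 bases. The 250 bases before each start are shown because both genes were highest in microglia, and those of Cryaa (chromosome 17, 31677807 to 31681733, plus strand), a lens-type member, are set beside them. They were taken from RefSeq on build GRCm38.p6 and are written 5′ to 3′ along the strand of the gene. Capitals mark TGCTGA, the core of the element bound by large Maf transcription factors.
Cryba4, chr5:112252519-112252768, minus strand: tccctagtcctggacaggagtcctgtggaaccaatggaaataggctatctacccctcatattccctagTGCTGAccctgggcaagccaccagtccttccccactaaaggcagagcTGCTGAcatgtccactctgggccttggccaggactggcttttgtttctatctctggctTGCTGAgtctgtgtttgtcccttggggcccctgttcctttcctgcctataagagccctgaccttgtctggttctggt
Crybb1, chr5:112255570-112255819, plus strand: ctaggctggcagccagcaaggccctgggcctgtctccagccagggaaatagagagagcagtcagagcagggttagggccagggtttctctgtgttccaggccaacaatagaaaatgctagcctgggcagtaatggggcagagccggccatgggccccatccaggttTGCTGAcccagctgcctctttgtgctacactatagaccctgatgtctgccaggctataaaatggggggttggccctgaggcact
Cryaa, chr17:31677681-31677930, plus strand: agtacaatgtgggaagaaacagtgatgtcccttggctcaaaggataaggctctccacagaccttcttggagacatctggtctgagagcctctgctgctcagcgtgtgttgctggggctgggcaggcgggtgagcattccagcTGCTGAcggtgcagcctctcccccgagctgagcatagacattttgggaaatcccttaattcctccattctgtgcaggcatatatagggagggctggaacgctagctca
Cryba4 held 3 copies, beginning 182, 135 and 77 bases before the start, Crybb1 held 1 at 84 bases and Cryaa 1 at 108 bases. These starts are RefSeq's. The GENCODE start of Cryaa given above lies inside its window, so that the marked site falls within the GENCODE gene, and the window of Crybb1 reaches its GENCODE gene in the last bases. On either strand (TGCTGA or TCAGCA), the letters occurred in 16.1% of 32851 promoters of the same 250 bases and in 6 of the 7 crystallins with an entry. GAGGAA or TTCCTC, the core bound by the myeloid factor PU.1, occurred in 23.3% of promoters and in 3 of the 7 crystallins (Cryaa, Cryba1 and Crybb2). These matches describe letters only.

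Cryba4 had 4.36, 6.42 and 4.28 UMIs per 100 microglia after saline and 4.42, 4.52 and 2.45 after IL-27, a mean of 4.41 ± 1.26 (SD, n = 6) from 65 UMIs. Crybb1 had 2.18, 6.95 and 4.28 after saline and 4.82, 2.01 and 4.29 after IL-27, a mean of 4.09 ± 1.83 from 54 UMIs. The groups overlapped for both genes. No other type had a mean above 0.869 for Cryba4 or 0.533 for Crybb1. Per nucleus, microglia held 20.7 times the Cryba4 of the inner retinal neurons (6.96 to 39.2 in single libraries) and 19.5 times the Crybb1 (6.95 to 49.0), each higher in 6 of 6 libraries. Rod, haemoglobin and mitochondrial genes were at 0.901, 1.37 and 1.05 times the neurons in the same nuclei. The edgeR adjusted p against the other types was 3.65e-17 for Cryba4 and 4.44e-17 for Crybb1. A Cryba4 UMI was seen in 3.36% of microglia (2.49 to 4.42), and after thinning to 1000 UMIs in 1.78% (1.15 to 2.62, with 54 shallower nuclei left out). In AC, which have deeper nuclei (median 5543 against 2075 UMIs), the shares were 0.201% and 0.0419%.

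At the finer resolution the pair kept most of its level. In the 1545 microglia, Cryba4 still had 3.88 UMIs per 100 nuclei and Crybb1 2.65, while Cryba2 had 0.453 and Crybb2 0.518. Both stayed past the threshold, with 53 nuclei carrying Cryba4 and 34 carrying Crybb1. In astrocytes both genes were listed at 0 UMIs in 278 nuclei, which at a limit of 3 counts allows a share of nuclei with a UMI of up to 1.08%. The genes most like Cryba4 over the 66 sums were H2-Eb1 (r = 0.88), an MHC class II chain, and the scavenger receptor gene Msr1 (r = 0.88). Those most like Crybb1 were the interferon-induced Oas3 (r = 0.90) and Ms4a6d (r = 0.87). Among 15 regulators of crystallin and retinal genes, of which 13 were tested, 5 were higher and 5 lower in microglia (33.9% and 21.8% of all genes). Maf was higher by a log2 of 3.802 (SE 0.129). It was also among the leading genes of a cluster of AC, which had means of 0.206 Cryba4 and 0.242 Crybb1 UMIs per 100 nuclei. A part of Maf in the Cryba4 and Crybb1 values was not tested.

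Cryba1, whose product is known to act in lysosomes of astrocytes and pigment epithelium besides the lens, had another pattern. Cryba1 (chromosome 11, 77718615 to 77725283, minus strand, GRCm38) was highest in RGC, at 8.94 ± 3.22 UMIs per 100 nuclei (SD, n = 6), and higher there than in the next type, AC, in 6 of 6 libraries although the ranges overlapped. Pooled over libraries, HC held 3.56 per 100 nuclei and rods 2.004, which was 0.385 times the inner neurons. RGC nuclei were deeper than AC nuclei, at means of 10683 and 6078 UMIs. In CPM the order differed, with rods at 16.2 after saline and 13.1 after IL-27, against 8.67 and 9.20 in AC. The test between types, which works in CPM, called Cryba1 higher in rods and did not call it in RGC. The gene rose more steeply than Cryab and Crym with the depth of a nucleus inside AC and BC. From the shallowest to the deepest quartile of AC nuclei, all UMIs rose 3.65-fold and Cryba1 2.84-fold, against 1.25-fold for Cryab, 1.34-fold for Crym and 1.10-fold for haemoglobin genes. Rod genes rose 2.0-fold and mitochondrial genes 1.63-fold there. In BC all UMIs rose 3.16-fold, Cryba1 2.57-fold, Cryab 1.47-fold, Crym 1.70-fold and haemoglobin genes 1.27-fold, while rod genes rose 2.71-fold, more than Cryba1, and mitochondrial genes 1.46-fold.

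**Figure D4:**
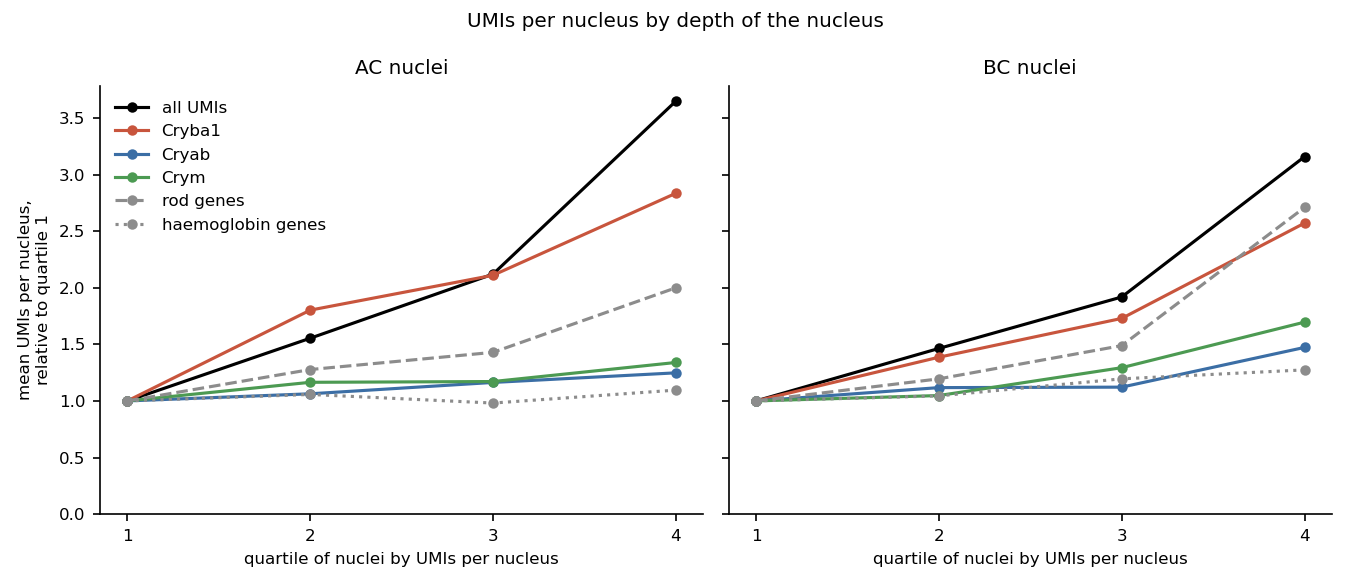
Mean UMIs per nucleus in 4 quartiles of AC and BC nuclei ranked by total UMIs, each divided by its value in the shallowest quartile. Cryba1 rises with all UMIs, 2.84-fold in AC and 2.57-fold in BC, while Cryab, Crym and haemoglobin genes rise by 1.10-fold to 1.70-fold and rod genes by 2.0-fold in AC and 2.71-fold in BC.

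Cryba1 lies wholly inside Nufip2, which is on the opposite strand, and reads of the pair cannot be told apart where counting ignores strand. Nufip2 had 28549 UMIs, and its UMIs per 100 nuclei also ran from 27.4 in rods to 131 in RGC. Over the 66 sums the log2(CPM + 1) of both genes had a Pearson r of 0.05, given as a description. Within microglia, Cryba1 was higher than in the other types by a log2 of 1.15 (SE 0.33, adjusted p = 0.00191), but not without saline 2 (log2 0.96, adjusted p = 0.12) and not at the finer resolution (log2 -0.26, adjusted p = 0.65). The genes most like Cryba1 were Sesn2 (r = 0.74) and Lyrm4 (r = 0.71).

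The remaining 4 members, Cryaa (the alpha A chain), Cryba2, Crybb2 and Crygs (gamma S), moved together from library to library. This was not particular to them, since saline 1, saline 2 and IL-27 10 were also the high libraries for Cryba1, Cryba4 and Crybb1. The highest library exceeded the lowest 1.73-fold, 3.58-fold and 2.63-fold for these genes. The 4 remaining members were set beside the 6 classical lens gamma crystallins Cryga to Crygf. The 4 genes summed to 6.90, 10.4 and 0.973 CPM in saline 1, 2 and 6 and to 3.46, 1.94 and 9.43 CPM in IL-27 4, 5 and 10. The gamma genes summed to 18.5, 15.9 and 1.21 CPM and to 7.01, 3.70 and 20.3 CPM. In both sums, saline 1, saline 2 and IL-27 10 were high, saline 6 was lowest and the treatments overlapped (exact permutation p of 0.9 and 1). The highest library exceeded the lowest 10.7-fold and 16.8-fold, against 1.88-fold for Crym, 2.54-fold for rod genes and 26.2-fold for haemoglobin genes. Over every deposited barcode the 2 sums differed 12.6-fold and 18.5-fold, and haemoglobin genes 5.24-fold.

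**Figure D5:**
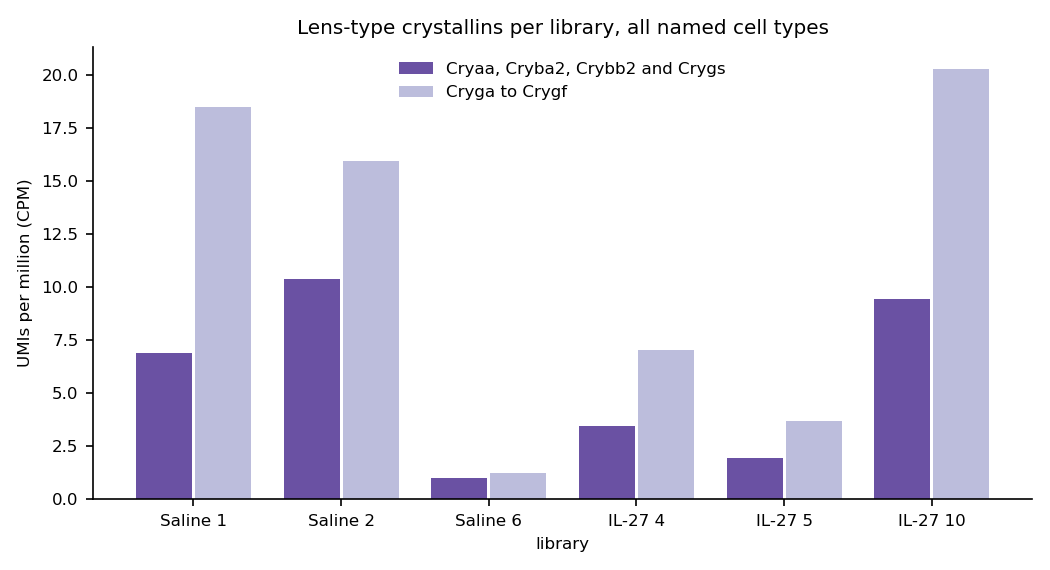
Bars give, for each library, the summed CPM of Cryaa, Cryba2, Crybb2 and Crygs and of Cryga to Crygf over all named cell types. Saline 1, saline 2 and IL-27 10 are high in both sums, and saline 6 is lowest at 0.973 and 1.21 CPM.

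Shares in the summed UMIs of these 10 genes were taken for Cryaa, Cryba2, Crybb2 and Crygs singly and for Cryga to Crygf as a sum. Most of these shares were alike in rods, cones, BC, AC, RGC, Muller glia and microglia. Shares of single gamma genes were not compared. Of the UMIs of the 10 genes, the gamma genes together made up 68.3% in rods (65.4 to 71.1, exact 95% interval), 64.2% in cones, 68.2% in BC, 66.2% in AC, 65.4% in RGC, 70.0% in Muller glia and 64.4% in microglia (59.9 to 68.7). Cryaa made up 14.8% in rods, 15.3% in AC, 13.6% in Muller glia and 15.5% in microglia. Crygs made up 7.77%, 9.17%, 8.33% and 9.11% in the same types. The microglial shares rest on 472 UMIs. A single barcode named microglia, in saline 2, carried 101 UMIs of Cryaa, Cryba2, Crybb2 and Crygs and 142 of the gamma genes. The intervals take each UMI as independent, which does not hold within such a barcode. The intervals of the 7 types overlapped for the gamma genes, Cryaa, Crybb2 and Crygs. Cryba2 was an exception, at 8.94% (5.20 to 14.1) in cones against 3.55% (2.51 to 4.86) in rods, 2.89% (1.69 to 4.58) in AC and 2.78% (1.34 to 5.05) in Muller glia. Between libraries the gamma share ran from 55.4% (43.4 to 67.0) in saline 6 to 72.9% (69.9 to 75.7) in saline 1.

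Per 100 nuclei the 4 lens-type members stood at 1.66 in the inner retinal neurons, with rods at 1.39 times, cones at 1.23 times and Muller glia at 1.26 times that level. Microglia, at 6.93 times, and the Fbln1 sub-cluster, at 4.46 times, lay above these types. From the shallowest to the deepest quartile of nuclei the 4 genes rose 1.86-fold in AC and 1.93-fold in BC. The part of free RNA in these UMIs was not tested. Of 52265 retained nuclei, 51359 had no UMI of these 4 genes and 829 had 1. By contrast 16 barcodes carried at least 5, holding 239 of the 1211 UMIs (19.7%). These barcodes were spread over saline 1 (3), saline 2 (5), IL-27 4 (3), IL-27 5 (2) and IL-27 10 (3), with 0 in saline 6, and 5 were named rods and 5 microglia. The richest, in saline 2, had 3161 UMIs in all, with 101 of the 4 genes and 142 of the gamma genes, but 1 of Crym.

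Without the 16 barcodes, a set defined after the values were seen, the 4 genes summed to 6.58, 6.54 and 0.973 CPM after saline and to 2.02, 1.53 and 8.78 CPM after IL-27. IL-27 10 was then the highest library, saline 1 and 2 were nearly level, saline 6 stayed lowest, and the exact permutation p was 1. In the 52 barcodes that were microglia at the coarser resolution alone, Cryaa had 113 UMIs per 100 barcodes, and the microglia left at the finer resolution had 1.81. The edgeR difference of microglia from the other types in Cryaa was a log2 of 3.22 (SE 0.35) at the coarser and of 1.21 (adjusted p = 0.017) at the finer resolution. In HC, Cryba2 was listed at 0 UMIs in 478 nuclei, which allows a share of nuclei with a UMI of up to 0.628% at the same limit.

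A group of rods separated at the finer resolution also held more of these genes. These 2567 nuclei, led by haemoglobin genes, had a median of 825 UMIs against 1351 in the 12975 other rods. Haemoglobin genes were at 452 UMIs per 100 nuclei against 6.58, but higher in only 4 of 6 libraries. The lens-type members were at 9.54 UMIs per 100 nuclei there and at 2.004 in the other rods, higher in 6 of 6 libraries. Cryab was at 20.6 against 10.3 and Crym at 31.5 against 19.2, each higher in 6 of 6 libraries as well, whereas rod genes were lower in 6 of 6 (1317 against 2167). Crybb1 was at 1.56 against 0.277 (higher in 6 of 6 libraries), Cryba4 at 1.13 against 0.347 (5 of 6) and Cryba1 at 4.01 against 2.19 (4 of 6). The rod values given above are means over both sets of nuclei.

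Over the 66 sums, the genes most like the lens-type members were mostly gamma crystallins. Only genes tested between types were searched, so Cryba2, Crybb2 and Crygs could not appear as neighbours. The listing thus cannot show whether the lens-type members were like each other. The closest genes were Crygd (r = 0.82) and Crygb (r = 0.78) for Cryaa, Crygb (r = 0.83) and Crygd (r = 0.82) for Cryba2, and Crygc (r = 0.86) and Crygb (r = 0.75) for Crygs. For Crybb2 they were Crygc (r = 0.74) and Ccdc142os (r = 0.59). Of 17 lens genes other than crystallins, 6 could be tested for IL-27 in the sum of all types, and 0 passed (median log2 fold change -0.10), while 2 were lower at an unadjusted p under 0.05. Of the 16 other crystallin genes 14 could be tested, with 0 passing and a median of -0.02. Of 15 regulator genes 14 were tested with 0 passing. The free RNA references also had 0 passing, with 13 rod genes at a median of 0.16, 13 mitochondrial genes at -0.07 and 4 haemoglobin genes at 2.41, 2 of the last with an unadjusted p under 0.05.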

How the data were processed

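The authors deposited, for each of 6 libraries, filtered matrices of raw UMI counts per gene and barcode. Per the labels they were made with Cell Ranger 9.0.1 (the matrix headers state 8.0.1) on the mouse reference of 10x Genomics, and Seurat 5.2.1 was used downstream. The genome build and the handling of strand in counting are not given in the sources used here. Depth was 36678332 to 48260748 UMIs per library.

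Following the study's thresholds, a barcode was kept if its UMIs exceeded 500, if 200 or more genes were detected and if mitochondrial UMIs stayed below 5%, and predicted doublets were removed with a Scrublet-type score in scanpy 1.11.5 at an expected rate of 8% with homotypic adjustment (3940 of 56634 barcodes removed). Nuclei were clustered by Louvain (25 components, 20 neighbours, resolution 0.25) on 2000 variable genes without crystallin, small heat shock and lens genes, and clusters were named from marker lists. For the sums, nuclei whose log2 count lay over 2 median absolute deviations (MAD) away from the median were left out, and 48807 named nuclei remained. Cell type names were rebuilt here and can differ from the study's.

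UMIs were summed per library and type, and tested with edgeR 4.0.16 (quasi-likelihood, TMM, filterByExpr at 10 counts, Benjamini-Hochberg over all genes, threshold 0.05). DESeq2 1.42.0 was an alternative. The groups were saline against IL-27, 3 libraries each, with no covariate. Types were compared within libraries, with library as a block. Exact permutation tests were two-sided. Shares carry exact Clopper-Pearson 95% intervals, and a count of 0 is given with a limit of 3 counts, which bounds nuclei with a UMI and not nuclei expressing the gene. CPM divides by the UMIs of the same sum. Counts were also simulated with the same dispersion for every gene and 200 genes changed by a log2 of 1.5. For IL-27 against saline the test recovered 87.5% in the sum of all types, 85.5% in Muller glia and 76% in microglia. For Muller glia against other types it recovered 94.5%. These rates do not carry over to members that varied more between libraries, such as Cryaa with a highest over lowest library of 10.8.

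Gene positions are those of GENCODE M21 (GRCm38), matched by gene ID (99.6% of 32285 IDs matched). Promoters are from RefSeq on GRCm38.p6, in which 7 of the 9 members had an entry. All 9 members were reported in every comparison, list genes where they passed the threshold, at most 5 per list, or as a reference, and for each member the 2 genes with the highest Pearson r. The members and lists were chosen with earlier results of these data known. Alternatives covered normalization, filters, nuclei kept, clustering and each library left out. A pair of alternatives was added after the data were seen, namely leaving out the Fbln1 sub-cluster from the sum of all types and leaving out barcodes with at least 5 UMIs of Cryaa, Cryba2, Crybb2 and Crygs. Some genes of the lists are not reported here by name.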

Additional observations from a re-analysis of the deposited data

How the results depend on the processing

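Of the results recomputed under alternatives, 313 values stayed alike, 19 changed direction, 5 counts or ratios moved and 2 values were no longer past the threshold. Alike meant the same direction and side of the threshold for fold changes. The exact permutation p judged the side with every type weighted equally, and without barcodes with at least 5 UMIs of the lens-type members. That p cannot fall below 0.1, so only a changed direction could be seen there. The count of members called at equal weight was fixed for the same reason. For counts of calls it meant an equal or near-equal count, and for ratios over the neurons a value within the SD over libraries. The number of genes called for IL-27 in the sum of all types was 17 with DESeq2, 4 with no filter on low counts and 0 to 1 with each library left out (1 without IL-27 replicate 10), against 0. Crystallin tests called within types were 1 with no filter, against 0: Cryaa in microglia, at a log2 of -2.39 (edgeR adjusted p = 0.000524), where saline 2 held 106 CPM and saline 6 none. The directions that changed belong to fold changes that were never past the threshold, except Cryba1 in microglia against other types, at -0.26 with clustering resolution 0.5 and 0.96 to 1.32 with each library left out. Cryba2 in the sum of all types was 0.0208 with every deposited barcode, and Cryba4 was -0.0606 with a mitochondrial limit of 1%. With each library left out, the log2 fold changes in the sum of all types ranged from -1.34 to 0.30 for Cryaa, -0.36 to 0.0306 for Cryba1, -0.97 to 0.56 for Cryba2, -0.27 to 0.46 for Cryba4, -0.50 to 0.12 for Crybb1, -0.95 to 0.19 for Crybb2, -1.19 to 0.15 for Crygs and -0.0105 to 0.41 for Crym. The direction changed without saline 2 for Cryaa, Cryba2, Crybb1, Crybb2 and Crygs, without IL-27 5 for Cryaa, Cryba1, Cryba2 and Crygs, without IL-27 4 for Cryba1 and Cryba2, without saline 6 for Cryba4, and without IL-27 10 for Cryba4 and Crym. Cryab in Muller glia ranged from -0.28 to 0.36 and changed direction without saline 6 or IL-27 10. Crym in Muller glia over the neurons ranged from 11.1 to 12.8 with each library left out, Cryab from 3.13 to 3.85, Cryba4 in microglia from 18.7 to 24.5 and Crybb1 from 16.9 to 25.002. The Cryba4 ratio was 53.8 as a share of nuclei thinned to 1000 UMIs. With every type weighted equally, Cryab was at a mean of 45.1 CPM after saline and 34.3 CPM after IL-27 (exact permutation p of 0.1, the smallest possible). The causes were not tested. No paired analysis was possible because the saline and IL-27 libraries share no replicate number.

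The 6 rarest members had 124 to 487 UMIs in all, so their values within types rest on few counts, and a share under the limit given for 0 counts would not be seen.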

Other observations

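Crystallins outside the 9 members also differed between cell types, and the genes named here were chosen after their values were seen. Crybb3, a basic beta crystallin that neighbours Crybb2, had 18.7, 19.2 and 18.2 UMIs per 100 Muller nuclei in saline 1, 2 and 6 and 15.7, 21.6 and 19.6 in IL-27 4, 5 and 10. This was 6.10 times the inner retinal neurons' 3.09 UMIs per 100 nuclei, and the edgeR log2 difference of Muller glia from the other types was 2.92 (SE 0.14, adjusted p = 1.60e-32). The values of the groups overlapped, and Crybb3 kept its level in saline 6, the library lowest in the lens-type members. Within Muller glia it rose 3.97-fold from the shallowest to the deepest quartile of nuclei, as Crym did (3.19-fold), whereas the sum of Cryga to Crygf stayed at 0.964 times.

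Lgsn, lengsin, a glutamine synthetase relative of the lens, stood at 48.7 UMIs per 100 HC nuclei and at 1.10 over the inner retinal neurons together, with HC included. Cryzl2 was highest in astrocytes, at 10.4 UMIs per 100 nuclei against 0.790. Cryl1, lambda-crystallin, and Crybg1 were higher in microglia than in the other types by a log2 of 2.53 (SE 0.17) and 2.67 (SE 0.24). Over the list of other crystallins, 12 were tested between types, of which 8 were higher and 1 lower in microglia (33.9% and 21.8% of all genes) and 5 were higher and 1 lower in Muller glia (39.8% and 15.7%).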
